A study of Homo sapiens with 8 samples.

Results

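The proneural basic helix-loop-helix (bHLH) genes considered here are NEUROD1, NEUROD2, NEUROD4, NEUROD6, NEUROG1, NEUROG2, NEUROG3, ASCL5 and ATOH1, 9 of 19617 protein-coding genes with a coding start site in GENCODE version 44. They were chosen as a family, and with it known that the promoters of NEUROD1, NEUROD6 and ASCL5 had a peak in different numbers of libraries of each group, that is, partly selected on the presence of peaks in these libraries, so those numbers are given as a description. The test of presence across all genes included them, and nothing about the members is drawn from it. ATAC-seq, which marks open DNA by letting a transposase cut it, was run on HEK293T cells, an established line from human embryonic kidney. Of the 8 libraries, 4 carried an H2A lentivector and 4 an H2A(E92K) lentivector, called E92K here, and all cells were described as transfected, were grown in the same medium and had no other treatment. E92K puts a lysine in place of a glutamate of the acidic patch, a negatively charged surface of the nucleosome, and the comparison asks whether the mutant histone changed where chromatin is open. The labels name no promoter for the transgene, no clone and no separate cultures, so the spread between libraries may be purely technical, and peak lists hold no measure of the transgene.

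Proneural factors dimerise with ubiquitous E proteins, bind E-boxes (CANNTG) and drive progenitors out of the cell cycle into neuronal fates. Neurogenins act early and switch on NEUROD genes, which act in differentiating neurons, while Notch signalling holds proneural genes down through HES repressors. Outside the nervous system, NEUROG3 and NEUROD1 specify and maintain the endocrine cells of the pancreas, and ATOH1 specifies hair cells of the ear and secretory cells of the gut. HEK293T cells are not neurons, but HEK293 lines are known to use several neuronal genes.

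The stretches below are the DNA under the peaks on which the results turn. They are the 3 promoter peaks that were called in different numbers of H2A and E92K libraries, the promoter peak of highest median fold in the family (NEUROD4) and the upstream region of highest median fold (NEUROG2). All were read from hg38 in the direction of the gene, at most 300 bases, nearest to the median summit and outside annotated untranslated regions. Capitals mark each E-box (CANNTG, which reads the same on both strands).
ASCL5 promoter peak (chr1:201127615-201127914, minus strand): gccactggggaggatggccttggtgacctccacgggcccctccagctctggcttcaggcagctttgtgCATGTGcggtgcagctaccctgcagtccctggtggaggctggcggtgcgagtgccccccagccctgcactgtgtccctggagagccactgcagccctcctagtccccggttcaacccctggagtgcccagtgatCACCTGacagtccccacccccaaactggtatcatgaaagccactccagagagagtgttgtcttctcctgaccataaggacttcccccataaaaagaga
NEUROD6 promoter peak (chr7:31340973-31341272, minus strand): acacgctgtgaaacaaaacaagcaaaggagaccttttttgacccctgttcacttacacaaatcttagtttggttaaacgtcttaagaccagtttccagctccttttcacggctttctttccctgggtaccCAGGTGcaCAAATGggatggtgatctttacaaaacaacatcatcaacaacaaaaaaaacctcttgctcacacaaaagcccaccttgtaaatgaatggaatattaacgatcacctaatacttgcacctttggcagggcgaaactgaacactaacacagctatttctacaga
NEUROD1 promoter peak, part before the start (chr2:181680666-181680923, minus strand): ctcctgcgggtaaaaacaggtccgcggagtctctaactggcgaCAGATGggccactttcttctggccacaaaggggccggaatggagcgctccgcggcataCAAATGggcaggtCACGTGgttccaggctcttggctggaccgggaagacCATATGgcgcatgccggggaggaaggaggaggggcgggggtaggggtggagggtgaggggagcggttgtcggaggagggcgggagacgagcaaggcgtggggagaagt
NEUROD4 promoter peak, part before the start (chr12:55019674-55019973, plus strand): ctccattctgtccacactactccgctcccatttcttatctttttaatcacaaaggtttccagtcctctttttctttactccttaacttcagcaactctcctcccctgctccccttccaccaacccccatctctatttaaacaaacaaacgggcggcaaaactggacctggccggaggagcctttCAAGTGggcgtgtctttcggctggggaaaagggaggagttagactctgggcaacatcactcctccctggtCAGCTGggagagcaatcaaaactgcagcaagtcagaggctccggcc
NEUROG2 upstream region (chr4:112523871-112524170, minus strand): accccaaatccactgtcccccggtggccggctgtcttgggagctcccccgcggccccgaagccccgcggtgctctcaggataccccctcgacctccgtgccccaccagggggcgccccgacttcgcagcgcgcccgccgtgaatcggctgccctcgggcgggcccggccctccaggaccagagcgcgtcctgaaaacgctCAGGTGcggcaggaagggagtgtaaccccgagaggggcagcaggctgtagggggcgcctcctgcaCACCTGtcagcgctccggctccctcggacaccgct
The ASCL5 stretch held 2 E-boxes and the NEUROD6 stretch 2. The ASCL5 stretch lies around the median of scattered summits and contains none of them. The NEUROD1 stretch, which lies upstream of all 6 summits (181680553 to 181680664), held 4, while the 300 bases around the median summit of that peak held 0. It lies before the canonical start site (181680517). NEUROD1 has 2 coding start sites, and its annotated span begins at 181680827, so part of the stretch lies inside the gene. The E-box farthest upstream (181680875 to 181680880) lay inside the peaks of H2A replicate 1 and E92K replicate 1 and beyond the other 4. E-boxes are frequent letters: one was found within 300 bases around the median summit in 18 of the 24 accessible regions near the 9 genes (75.0%). The same held for 77.2% of all 96872 regions. The CAGCTG form was in 7 of the 24 (29.2%) against 18.0% of all regions, and the CAGATG form, searched on both strands, in 2 of the 24 (8.3%) against 19.5%. A match shows letters and not binding.

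Every one of the 9 genes had a promoter peak in at least 2 libraries. A promoter is the stretch within 1000 bp of a coding start site, and it counted as called in a library if a peak touched it. Promoters of NEUROD4, NEUROG1, NEUROG2, NEUROG3 and ATOH1 were called in all 8 libraries (5 of 9, 55.6%), against 68.0% of all protein-coding genes. The other 4, NEUROD1, NEUROD2, NEUROD6 and ASCL5, were called in 6, 2, 5 and 4 libraries. None was at 0, where 25.6% of all genes were. The numbers of H2A and E92K libraries differed for 3 members, and for 1034 of all genes (5.27%). Since those 3 were known when the family was chosen, nothing is read from that count. Unequal promoters can be called neither in all 8 libraries nor in none, so the shares at 8 and at 0 are descriptions too. Across all genes, 0 of 19617 promoters passed Fisher's exact test of presence after Benjamini-Hochberg adjustment (0.0%) and 6, ASCL5 among them through the contrast it was chosen on, had an unadjusted p under 0.05. The smallest exact p that 4 against 4 libraries can give is 0.0286. With only 6 promoters at that value none can pass the adjustment, so the 0 does not show equal presence.

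**Figure D1:**
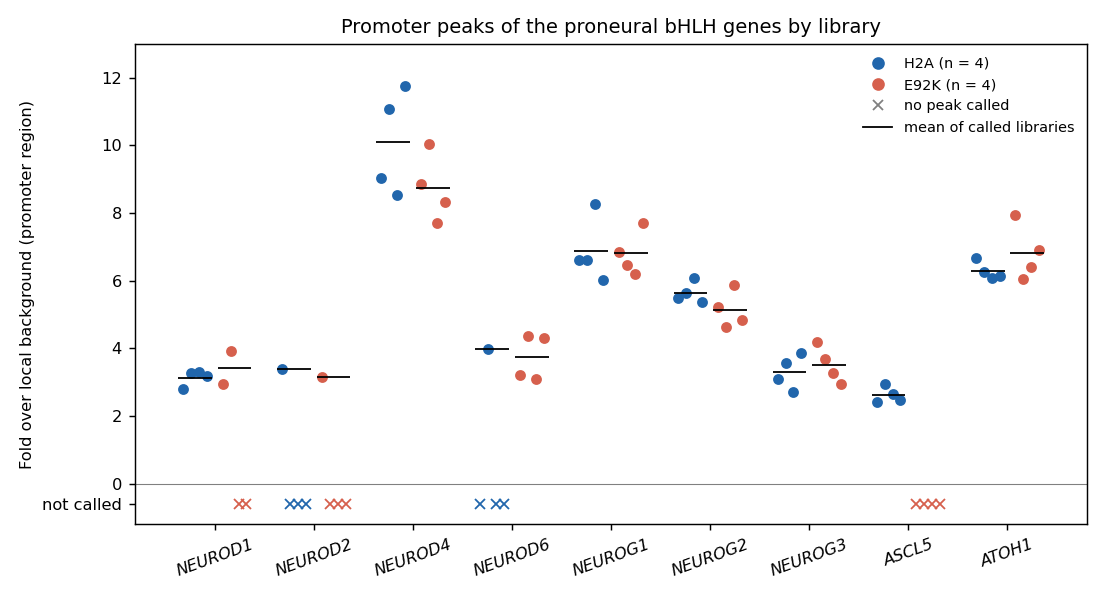
Fold enrichment over local background (y axis) of the promoter region of each gene (x axis) in the 4 H2A and 4 E92K libraries, with crosses for libraries in which no peak was called and a line at the mean of the called libraries. Promoters called in all 8 libraries span fold 2.72 (NEUROG3) to 11.75 (NEUROD4), and the 4 partly called promoters lie between 2.41 and 4.35.

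Values below are each peak's fold over its local background as the authors' lists give it. Each fold belongs to its own list and is used to describe peaks, so folds of the groups are set side by side and not tested. The libraries held 55527 to 62044 peaks. Their genome-wide background, which tracks depth, was 2.52 to 2.93 fragments in H2A and 2.23 to 2.68 in E92K libraries, with E92K replicates 3 and 4 the lowest at 2.23 and 2.26. A region without a peak was below the calling threshold at that depth and may still have been accessible. The labelled cell type was checked on markers: PAX2, SALL1, SIX2, WT1, NEFL, NEFM and INA all had a promoter peak in 8 of 8 libraries. So did 68.0% of all coding genes, and such calls do not by themselves identify the cell type. Of 7 blood, liver and endothelial genes none had one in all 8, and 2 (PTPRC and APOA1) had one in a single E92K library. The part of these 2 calls in any result was not tested.

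Among the neurogenins, which start neuronal commitment, NEUROG1 had the promoter with the highest median fold over local background, 6.61 against 5.43 for NEUROG2 and 3.42 for NEUROG3, while NEUROG2 had more fragments at the summit (81 to 121 against 37 to 47) and a higher −log10 q (28.22 to 48.73 against 18.48 to 27.81). Its region (chromosome 5, 135535896 to 135536724) began at the start site and ran upstream, overlapping a long noncoding RNA gene and inside SLC25A48, outside the exons of its coding transcripts. Its folds were 6.62, 6.60, 8.28 and 6.03 in H2A replicates 1 to 4 and 6.85, 6.47, 6.20 and 7.72 in E92K replicates 1 to 4. The groups overlapped, at 6.88 ± 0.97 and 6.81 ± 0.66 (SD, n = 4 each). NEUROG1 also had 2 regions farther upstream, 15.9 kb and 18.1 kb from the start site and called in all 8 libraries, with folds of 5.32 to 7.24 and 3.68 to 5.23.

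NEUROG2, a neurogenin of the cortex and spinal cord, lay under the widest region of the family, 2460 bp over the promoter and much of the gene (chromosome 4, 112514375 to 112516834). It also lay over the antisense transcript NEUROG2-AS1. Single peaks there held up to 4 summits. Folds were 5.50, 5.63, 6.08 and 5.37 in H2A and 5.21, 4.64, 5.86 and 4.84 in E92K libraries, overlapping between the groups. The region printed above, 7.8 kb upstream (chromosome 4, 112523573 to 112524477), had higher folds, with 11.08, 9.73, 10.73 and 9.85 in H2A and 9.85, 10.55, 10.40 and 8.90 in E92K libraries. Its summits in the 8 libraries fell within 49 bp of each other.

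NEUROG3, the neurogenin of pancreatic endocrine progenitors, had the lowest median fold of the promoters called everywhere (chromosome 10, 69573065 to 69574280). Its folds were 3.09, 3.58, 2.72 and 3.86 in H2A and 4.19, 3.67, 3.26 and 2.94 in E92K libraries, from summits of 16 to 26 fragments. Ranked by −log10 q within their lists, these peaks reached percentiles from 6.8 to 34.4. With peaks of a q-value of 1e-05 or less, NEUROG3 kept a promoter peak in 2 H2A and 3 E92K libraries. A second region, 1.3 kb upstream, was called in 2 H2A and 3 E92K libraries at folds of 2.90 to 3.97. It touched the edge of the promoter only through the peak of E92K replicate 3. Another region, 5.4 kb downstream and beyond the gene, was called in 3 and 3.

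ATOH1, the factor of hair cells and cerebellar granule neurons, had 1 region in its window, 1876 bp wide, over the promoter and the 5′ part of the gene (chromosome 4, 93828042 to 93829917). Folds were 6.68, 6.27, 6.09 and 6.14 in H2A and 7.95, 6.05, 6.41 and 6.92 in E92K libraries. E92K replicate 1 was the highest and the groups overlapped. Summits of 98 to 118 fragments stood on a local background of 13.47 to 18.07 fragments, 5.58 to 7.06 times the genome-wide background of the same libraries.

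NEUROD4, a NEUROD factor of the retina and cranial placodes, had the highest promoter folds of the family and no other region in its window. The peak (chromosome 12, 55019657 to 55020286) sat on the start site, with all 8 summits within 36 bp of each other. Folds were 9.05, 11.07, 8.54 and 11.75 in H2A and 8.85, 10.05, 7.71 and 8.34 in E92K libraries. H2A replicates 2 and 4 were the highest, but H2A replicate 3 lay below 2 E92K libraries, so the groups overlapped (10.1 ± 1.55 and 8.74 ± 0.99, SD, n = 4 each). At the start site NEUROD4 has few CpG dinucleotides: within 500 bp on either side the CpG observed over expected ratio was 0.37, at the 23.0th percentile of coding genes, whose median was 0.73.

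ASCL5, an achaete-scute factor also known as AmeloD from dental epithelium, had a promoter peak in all 4 H2A libraries and in no E92K library. Such a pattern was found at 5 of 19617 promoters (0.0255%), ASCL5 among them, and the converse at 1 (0.0051%). Folds were 2.41, 2.93, 2.66 and 2.47 in H2A replicates 1 to 4, with 2.41 the lowest fold of the family's promoters. The 4 peaks had −log10 q of 3.67, 5.90, 4.58 and 4.32, where the lists end at 2, and stood at the 15.1th, 29.1th, 21.4th and 19.6th percentiles of their lists. At a q-value of 1e-05 or less, only H2A replicate 2 kept its peak.

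The ASCL5 peaks did not share a summit. Their strongest summits lay 172, 765, 397 and 809 bp upstream of the start site, a spread of 637 bp, against 111 bp for NEUROD1, 174 bp for NEUROD6 and 36 bp for NEUROD4. Peaks were 602, 248, 612 and 288 bp wide and had only 84 bp in common (chromosome 1, 201127787 to 201127870). That common stretch lies inside the sequence printed above and holds the first of its 2 E-boxes (CATGTG at 201127841 to 201127846). With promoters of 500 bp, ASCL5 was called in 2 H2A libraries and no E92K library. Summits of 31 to 34 fragments stood on a local background of 10.59 to 13.17 fragments, 4.20 to 4.53 times the genome-wide background.

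**Figure D2:**
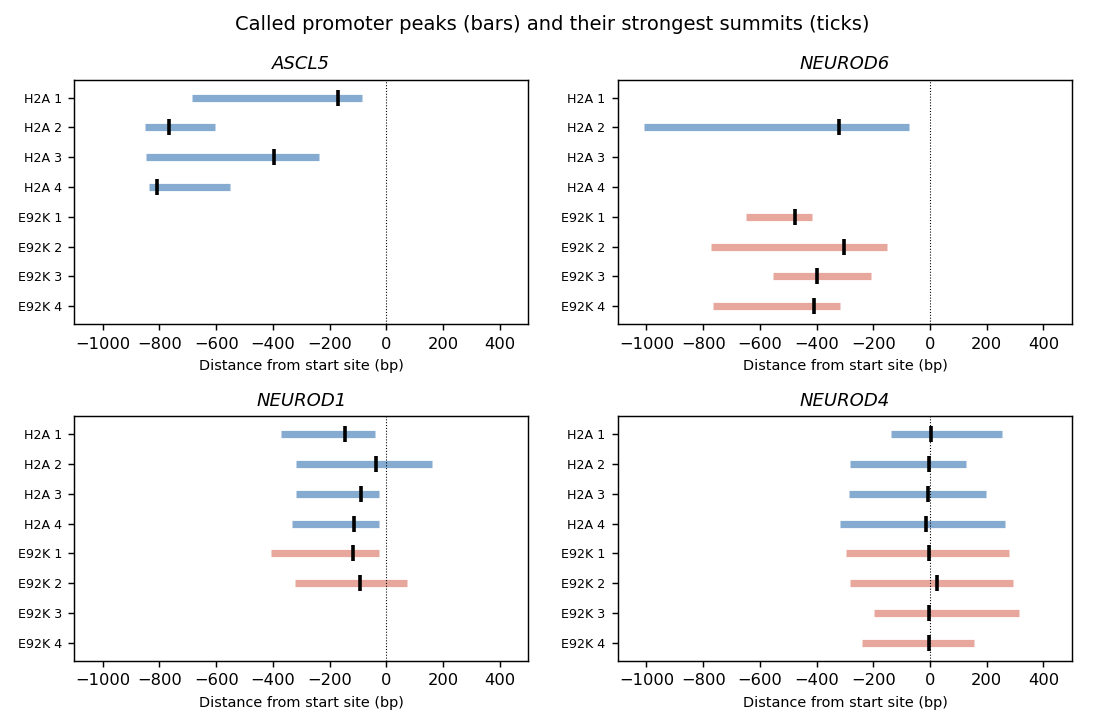
Called promoter peaks (bars) and their strongest summits (ticks) for 4 genes in each library, by distance from the start site in bp (x axis, negative upstream). NEUROD4 summits line up at the start site in all 8 libraries, whereas the ASCL5 summits of the 4 H2A libraries are spread over 637 bp.

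Elsewhere at ASCL5, 1 region was called in all 8 libraries and 2 in part of them. The region at the 3′ end of the gene, 12.9 kb downstream of the start site and over its last exon (chromosome 1, 201113827 to 201114738), had folds of 11.12, 10.91, 9.56 and 10.79 in H2A and 10.20, 10.34, 10.47 and 9.81 in E92K libraries. It had the highest median fold of the 24 regions, 10.41, and the groups overlapped. A region outside the exons, 7.6 kb downstream, was called in H2A replicates 1, 2 and 4 and E92K replicates 3 and 4, at folds of 3.72 to 5.34. A weak region 2.7 kb upstream was called in E92K replicate 4 only, at a fold of 2.91.

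NEUROD6, a factor of cortical pyramidal neurons, went the other way, with a promoter peak in H2A replicate 2 and in all 4 E92K libraries. More E92K than H2A libraries were called at 457 of all promoters (2.33%) and more H2A than E92K at 577 (2.94%). The fold was 3.98 in H2A replicate 2 and 3.22, 4.35, 3.09 and 4.30 in E92K replicates 1 to 4, so the 1 H2A value lay among the E92K values. Summits lay 303 to 477 bp upstream of the start site (region on chromosome 7, 31340801 to 31341734). They rested on 9 to 15 fragments, with 9 the lowest of the family's promoters, over a local background equal to the genome-wide one (2.23 to 2.68 fragments). E92K replicates 1 and 3 passed narrowly, with −log10 q of 2.42 and 2.04 at the 3.7th and 1.4th percentiles of their lists. With equal numbers of peaks in every list the promoter was called in 1 H2A and 2 E92K libraries, and at a q-value of 1e-05 or less in 0 and 1. NEUROD6 had no other region in its window, and its start site was poor in G and C (39.1% in 1000 bp, against a median of 61.4% over coding genes).

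NEUROD1, the factor of pancreatic beta cells and of cerebellar and hippocampal granule neurons, had a promoter peak in all 4 H2A libraries and in E92K replicates 1 and 2. Folds were 2.79, 3.28, 3.29 and 3.18 in H2A replicates 1 to 4 and 2.93 and 3.93 in the 2 E92K libraries, so E92K replicate 2 was the highest of the 6. The −log10 q was 5.56 to 13.65, and the same 6 libraries kept the peak at a q-value of 1e-05 or less. The region (chromosome 2, 181680356 to 181680923) covers the start site and also lies inside the annotated span of CERKL, a gene of the retina. The 2 libraries without the peak, E92K replicates 3 and 4, had the lowest background of the 8. When every library was scaled to the depth of the shallowest, a calculation added after seeing the data, the 6 peaks still passed, with −log10 p of 7.03 to 13.68 against a smallest value of 3.89. ASCL5 and NEUROD6 also kept their calls at that depth, at −log10 p of 5.10 to 7.17 and 3.94 to 6.95. The NEUROD6 call in E92K replicate 3, the shallowest library, was kept by construction. Scaling covers called peaks alone, so the part of depth in the missing calls was not tested.

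**Figure D3:**
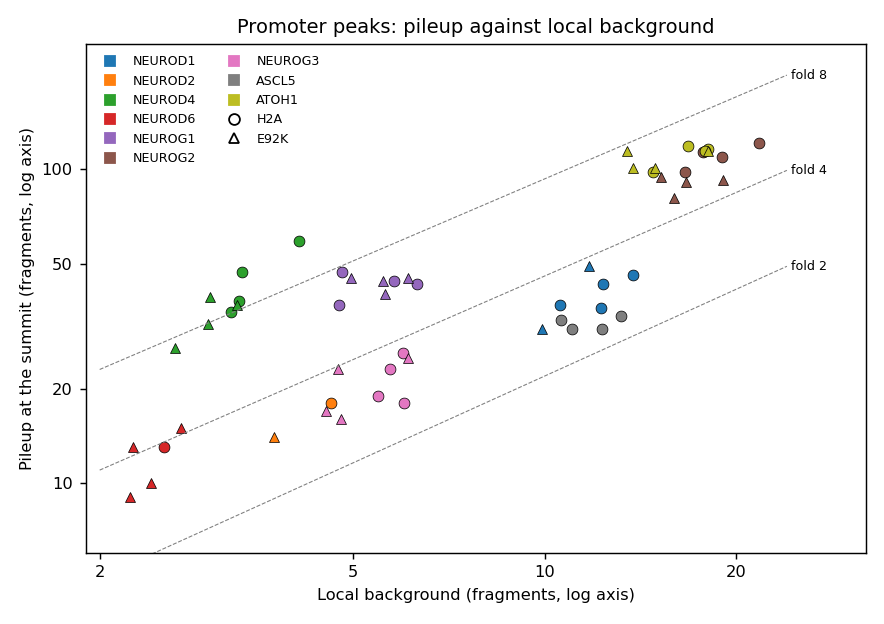
Fragments at the summit (y axis, log scale) against local background (x axis, log scale) for the promoter region of each gene in each called library, with circles for H2A, triangles for E92K and dashed lines of equal fold. NEUROD6 has 9 to 15 fragments on a background of 2.23 to 2.68, whereas ASCL5 has 31 to 34 fragments on a background of 10.59 to 13.17.

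Other NEUROD1 regions were called in all 8 libraries. The nearest, 2.4 kb downstream in an exon of the gene, had folds of 5.61, 4.98, 6.14 and 6.85 in H2A and 6.59, 6.17, 5.66 and 6.37 in E92K libraries, above those of the promoter in every library that had both. A region 3.3 kb upstream, over a long noncoding RNA gene, had folds of 3.79 to 4.92. The fourth, 23.6 kb downstream, was the promoter of CERKL and had folds of 7.21 to 9.42. In E92K replicates 3 and 4, which lacked the promoter peak, these 3 regions had folds of 5.66 and 6.37, 4.68 and 4.92, and 8.04 and 7.21.

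NEUROD2, a factor of cortical projection neurons, was the least often called promoter, in H2A replicate 1 (fold 3.38) and E92K replicate 1 (fold 3.15). These peaks reached the promoter only at its edge, with summits 1009 and 1033 bp downstream of the start site, so no library had a summit in the promoter. A region over an exon 2.0 kb downstream was called in 3 H2A and 3 E92K libraries at folds of 3.15 to 4.54. The groups were alike in number at both. Regions 14.3 kb and 15.7 kb upstream were called in all 8 libraries, with folds of 5.59 to 8.10 and 3.34 to 5.46, and a region 15.5 kb downstream in 1 library of each group.

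**Figure D4:**
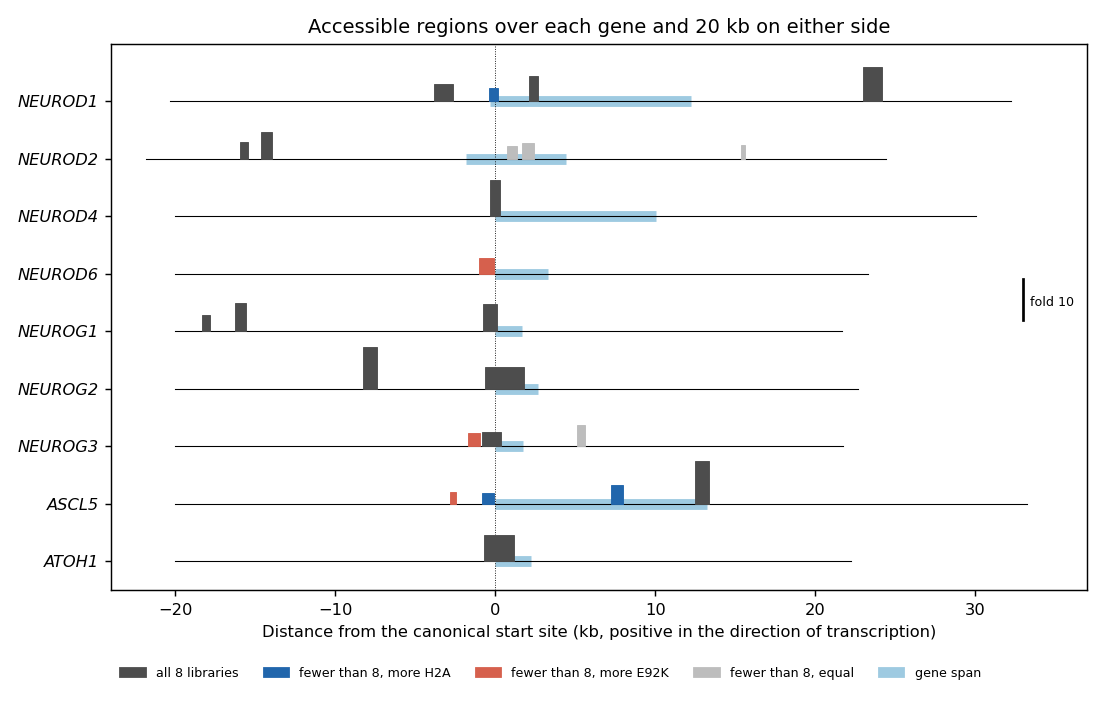
Accessible regions (boxes) over each gene and 20 kb on either side, by distance from the canonical start site in kb (x axis), with box height in proportion to the median fold (scale bar, fold 10) and colour for the libraries called. Of 24 regions 14 were called in all 8 libraries, and the tallest boxes are at the ASCL5 3′ end and upstream of NEUROG2.

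Across the 9 windows there were 24 regions, 10 touching the member's own promoter and 14 distal. Of these 14 were called in all 8 libraries, 5 at promoters and 9 distal, against 38.1% of all 96872 regions. Regions called in a single library, given below, lower the share of all regions more, and the windows are centred on genes. Nothing is read from that difference. At each of the 14 regions called in all 8 libraries the fold ranges of the groups overlapped. They were apart at 5.52% of the 36895 regions called everywhere, with 1.56% higher in every H2A library and 3.96% higher in every E92K library. Numbers of libraries differed between the groups at 6 of the 24 regions, 3 with more H2A and 3 with more E92K libraries, against 52.5% of all regions (28.3% with more H2A and 24.2% with more E92K). A region called in 1 library is unequal by construction, and 26.5% of all regions were of that kind, against 1 of the 24. The 6 also include the promoters of NEUROD1, NEUROD6 and ASCL5, known when the members were chosen. Nothing is read from that comparison. The ASCL5 promoter was the 1 region of the 24 with a peak in all 4 H2A and no E92K libraries, as 0.184% of all regions were, and none had the converse, found at 0.139%. Of the 6 unequal regions 2 were distal, both at ASCL5. NEUROD4, NEUROD6 and ATOH1 had no distal region.

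The promoters that were called in part of the libraries differed in composition from each other. CpG observed over expected within 500 bp of the start site was 0.29 at NEUROD6 and at ASCL5, 0.46 at NEUROD2 and 0.73 at NEUROD1, the last equal to the median of coding genes. Among those called everywhere it was 0.37 at NEUROD4, 0.69 at NEUROG3, 0.75 at ATOH1, 0.84 at NEUROG2 and 0.89 at NEUROG1. The ratio of NEUROD4, called everywhere, was below that of 2 partly called members. Any link between composition and calls was not tested. All 9 genes had a promoter of 300 bases in the RefSeq table (GRCh38.p14), of which 6 held an E-box, against 64.4% of 15315 coding promoters. NEUROD1, NEUROG1 and NEUROG2 were the 3 without one.

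Genes with the same calls in each of the 8 libraries were few. ASCL5 shared its pattern with 4 other genes, of which SLC5A5, the sodium-iodide symporter, PHF2, a histone demethylase, and TMEM225B were nearest in mean fold (2.60, 2.47 and 3.79, against 2.62 for ASCL5). NEUROD1 shared its pattern with 13 other genes, the nearest CASKIN1, LRRC3B and SLC22A14 at mean folds of 3.29, 3.32 and 3.49 against 3.24. NEUROD6 shared its own with 4 others, the nearest GBP6, GPR151 and RXFP4 at 3.90, 2.76 and 2.46 against 3.79.

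Among the partners and regulators of proneural factors, the share called in all 8 libraries is to be read against 68.0% of all coding genes. All 3 E protein genes (TCF3, TCF4 and TCF12) and all 4 ID genes, whose products sequester E proteins, had promoter peaks in 8 libraries. So did 8 of 10 HES and HEY repressor genes (80.0%), with HES5 and HES7 called in none, and 11 of 13 Notch pathway genes (84.6%), with NOTCH4 called in none and NOTCH3 in 1 E92K library. Of 15 genes known to lie downstream of proneural factors, 11 (73.3%) were called in all 8, among them CBFA2T2, EBF2 and EBF3, and DCX and SRRM4 in none. The other 2, INSM1 and TBR1, were called in 7 libraries, 3 and 4 of them H2A. All these lists were drawn up with earlier results on these data known.

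The other neural bHLH genes came closest to the 9 members in the share called in all 8, though the members' share was limited by how they were chosen. Of 14 such genes 8 (57.1%) were called in all 8 libraries, among them ASCL4, ATOH7 and ATOH8, and ASCL3, NHLH1 and NHLH2 in none. ASCL2, an achaete-scute factor of intestinal stem cells, was called in 3 H2A and 4 E92K libraries. OLIG3, a factor of the dorsal hindbrain and spinal cord, was called in 4 H2A and 2 E92K libraries and was the only one of the 59 listed pathway genes whose numbers differed by 2 or more, as they did at 291 of all promoters (1.48%). More H2A libraries were called at 3 of the 59 and more E92K libraries at 3, against 2.94% and 2.33% of all promoters. Nothing is read from such small counts. None passed Fisher's exact test with adjustment, which no promoter could pass here, so that result does not show equal presence.

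**Figure D5:**
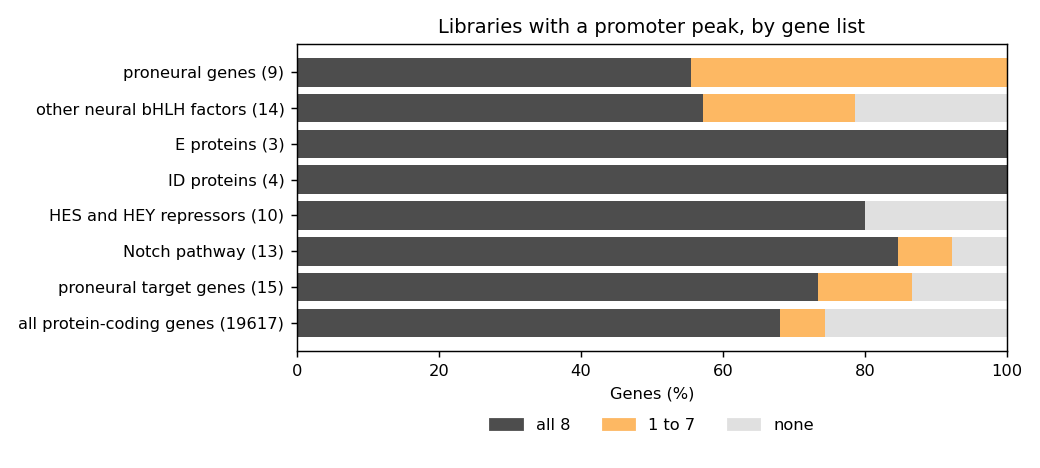
Share of genes (x axis, %) with a promoter peak in all 8 libraries, in 1 to 7 or in none, for each gene list and for all protein-coding genes, with the number of genes in parentheses. The proneural genes (5 of 9) and the other neural bHLH genes (8 of 14) have lower shares called in all 8 than all genes (68.0%), and E protein and ID genes are called in all 8. The share of the proneural genes was partly set by their choice, since NEUROD1, NEUROD6 and ASCL5 were known to be called in part of the libraries.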

How the data were processed

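Each of the 8 libraries had 1 headerless list of 10 columns in narrowPeak layout, so peaks were called per sample. Reads were aligned to hg38, per the labels' series text. The sources used here do not give the aligner, the peak caller, the Tn5 shift or how duplicates were treated. The deposited fold is a ratio of the summit over local background. Significance was deposited as −log10 of the p-value and of the q-value, with no q-value above 0.01. The deposited score is 10 times the −log10 q, rounded down.

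A peak was a distinct interval, represented by the summit with the smallest p. Pileup n and local background b were recovered from the deposited fold, taken as (n + 1)/(b + 1), and the Poisson p, within 0.001; chromosome Y was left out. The lists were merged where peaks overlapped or touched, and presence needed 1 bp. Promoters were 1000 bp on either side of coding start sites of GENCODE version 44 basic transcripts, and windows were gene spans plus 20 kb. Fisher's exact test used all 19617 genes with Benjamini-Hochberg adjustment (scipy 1.17.1, Python 3.11.15). Simulated data served to check its unadjusted p for features called in every library of 1 group only, and not the adjusted p. Sequences were read from hg38 with pysam 0.24.0. All members, regions and lists were named by fixed rules, and the members and lists were chosen with earlier results of these data known. Listed genes were named where library numbers differed by 2 or more, beside examples in alphabetical order; those called in none or part of the libraries were named after their values were seen. Peak thresholds, promoter width, overlap, window size, peak number, depth and single libraries were varied. The values of 1 listed gene are not reported here.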

Additional observations from a re-analysis of the deposited data

How the results depend on the processing

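With promoters of 500 bp, with the summit required inside the promoter, and at a q-value of 1e-05 or less, 1 member (NEUROD2) had no promoter peak, in place of 0. At 10 kb on either side 9 window regions were called in all 8 libraries, in place of 14, since fewer regions were counted. Leaving out 1 library at a time gave 9 to 20 promoters with a peak in every library of 1 group and in no library of the opposite group, in place of 6, and 9 to 10 window regions with unequal shares, in place of 6. Unequal group sizes make any partly called region with equal numbers unequal by construction. Without H2A replicate 2, NEUROD6 was called in 0 H2A and 4 E92K libraries. ASCL5 was called in every remaining H2A library and no E92K library without any single library. A start of 4 against 0 gives this by construction, so nothing is drawn from it. The numbers of members called everywhere and of unequal members stayed within 1.5 times their value under every alternative. With a replicate block (exact sign-flip test over the 4 pairs of equal number) 0 promoters passed, also 0 unadjusted, where the smallest p is 0.125. The numbers gave no sign of pairing: deviations of same-numbered libraries correlated at -0.054 to -0.001. Fragments are known for called peaks alone, so the depth at uncalled promoters was not measured.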
